A study of Homo sapiens with 6 samples.

Results

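SOX, forkhead, GATA and T-box genes encode 4 families of DNA-binding transcription factors that set cell identity during development. The members taken here were the rows of the 6 raw-count tables whose symbol is SOX, FOX with a letter from A to S, GATA or TBX followed only by a number, with at least 10 counts in total. Of 82 such symbols 72 reached 10 counts, out of 56832 rows in all, and they comprised 16 SOX, 38 forkhead, 6 GATA and 12 T-box genes. Poly(A) RNA-seq was carried out on HEK293T cells, a human embryonic kidney epithelial line, labelled as a GLO1 knockout. GLO1 encodes glyoxalase 1, an enzyme that detoxifies methylglyoxal (MGO), which is a reactive by-product of glycolysis. The 3 MGO libraries, numbered 1, 3 and 4, came from cells given 0.2 mM MGO in the medium overnight, and the 3 untreated libraries, numbered 1, 2 and 4, came from cells without it. All 6 libraries are labelled as the knockout, and the sources used here do not state whether the line is 1 clone. They do not say either that the libraries are from separate cultures, and the p-values cover library-to-library spread alone, part of which may be technical.

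SOX proteins bend DNA through an HMG box and often act together with a partner factor such as a POU protein. Forkhead proteins bind through a winged helix, and some of them, as the FOXA proteins, can bind sites in closed chromatin and open it. GATA proteins recognise the sequence that gives them their name through zinc fingers and recruit FOG cofactors, and T-box proteins act as activators or repressors in mesoderm, limb, heart and immune cells. In the embryonic kidney several of these factors mark particular lineages, with FOXD1 in the stroma, GATA3 in the collecting duct and TBX18 around the ureter.

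Library totals were 19195920 to 21544749 counts in MGO and 41002134 to 45910040 in untreated libraries, so MGO values rest on fewer reads. The members together held 37256 to 44522 counts in MGO and 127296 to 144335 in untreated libraries. Levels are counts scaled to library size with TMM factors (counts per 1e6, CPM), so each difference is relative to the rest of a library, and a lower share of cells with a transcript cannot be told apart from less of it per cell. The mitochondrial share was 8.17%, 6.00% and 5.34% in MGO libraries 1, 3 and 4 and 5.42%, 4.20% and 4.28% in untreated libraries 1, 2 and 4. Among the 52 members that met the rule for a full description, 8 followed that order across the MGO libraries and 13 the reverse order, and its part in the results was not tested. Without both libraries numbered 1, 17 members were higher and 40 lower, where 7193 of all 17661 genes tested were higher and 7151 lower. GLO1 had 2434, 2641 and 3048 counts in MGO and 2365, 2246 and 1969 in untreated libraries, or 140.4 ± 5.30 CPM in MGO and 48.1 ± 2.57 CPM in untreated libraries (n = 3 each), but a small lesion need not lower a gene's count, and with wild-type cells not analysed here the knockout could not be checked. Of 11 tested markers of the line 5 were higher and 6 lower, and KRT8 (824 CPM in MGO against 525 CPM in untreated libraries), VIM (449 CPM in MGO against 347 CPM in untreated libraries) and EPCAM (151 CPM in MGO against 138 CPM in untreated libraries) were abundant and higher. The neuronal marker NEFL (38.1 CPM in MGO against 165 CPM in untreated libraries) and the cadherin CDH2 (94.7 CPM in MGO against 206 CPM in untreated libraries) were lower. So were the RNA-binding LIN28B (98.4 CPM in MGO against 132 CPM in untreated libraries) and the kidney factor PAX2 (2.77 CPM in MGO against 13.2 CPM in untreated libraries). The epithelial cadherin CDH1 (4.95 CPM in MGO against 10.3 CPM in untreated libraries) was lower as well. The tubule marker UMOD had 0 counts in every library. Summed over whole lists, 6 haematopoietic markers held 0.903 to 1.44 CPM in MGO and 0.647 to 1.13 in untreated libraries, 5 endothelial markers 0.966 to 1.43 in MGO and 1.38 to 1.83 in untreated libraries, and 5 melanocyte and glial markers 2.90 to 3.81 in MGO and 2.45 to 2.85 in untreated libraries. The sum of 6 fibroblast markers was 11.4 to 13.6 CPM in MGO and 23.7 to 25.1 in untreated libraries, and that of 8 markers of differentiated kidney 8.93 to 12.1 in MGO and 21.2 to 21.9 in untreated libraries. COL1A1 and LRP2 made up most of the fibroblast and kidney sums, COL1A2 was at 0 counts in every library, and the part of these markers in the results was not tested.

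Most SOX, forkhead and GATA genes were lower in MGO, while T-box genes went in both directions. Of the 72 members 63 passed the expression filter and were tested, and 17 were higher, 41 lower and 5 not called (edgeR quasi-likelihood test, adjusted p under 0.05). Among all 17415 genes tested 83.1% were called, 41.8% higher and 41.2% lower. Against that background 27.0% of the tested members were higher and 65.1% lower, a split tilted to the lower side. At least 2-fold differences were called for 6 higher and 21 lower members, where 19.8% of all genes tested were at least 2-fold higher and 16.7% at least 2-fold lower. The median log2 fold change was -0.52 over the tested members and close to 0 over all genes tested. By family, 2 SOX genes were higher and 12 lower of 15, 9 forkhead genes higher and 22 lower of 34, 1 GATA gene higher and 4 lower of 5, and 5 T-box genes higher and 3 lower of 9. Median log2 fold changes were -1.11 for SOX, -0.40 for forkhead, -0.80 for GATA and 0.28 for T-box genes. The groups of 3 libraries did not overlap for 57 of the 63 tested members, 17 with MGO higher and 40 with MGO lower. Of all genes tested 83.5% did not overlap, 41.8% with MGO higher and 41.7% with MGO lower.

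**Figure D1:**
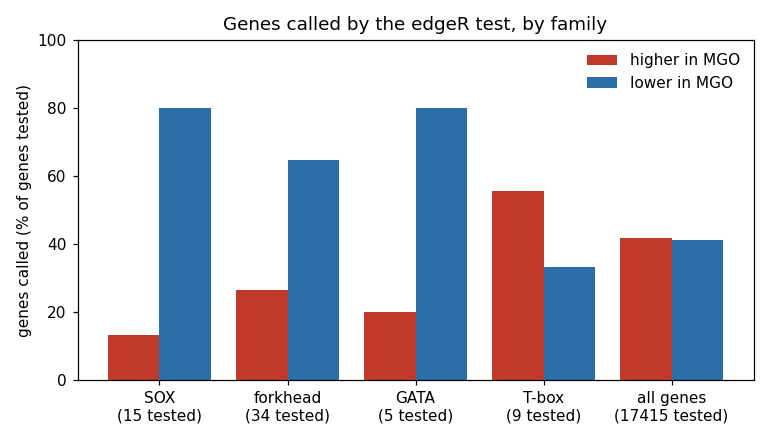
Percent of tested genes called higher (red) or lower (blue) in MGO than in untreated libraries, for each family and for all genes tested. Lower calls reached 80.0% in SOX, 64.7% in forkhead and 80.0% in GATA genes but 33.3% in T-box genes, and 41.2% of all genes tested were lower.

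**Figure D2:**
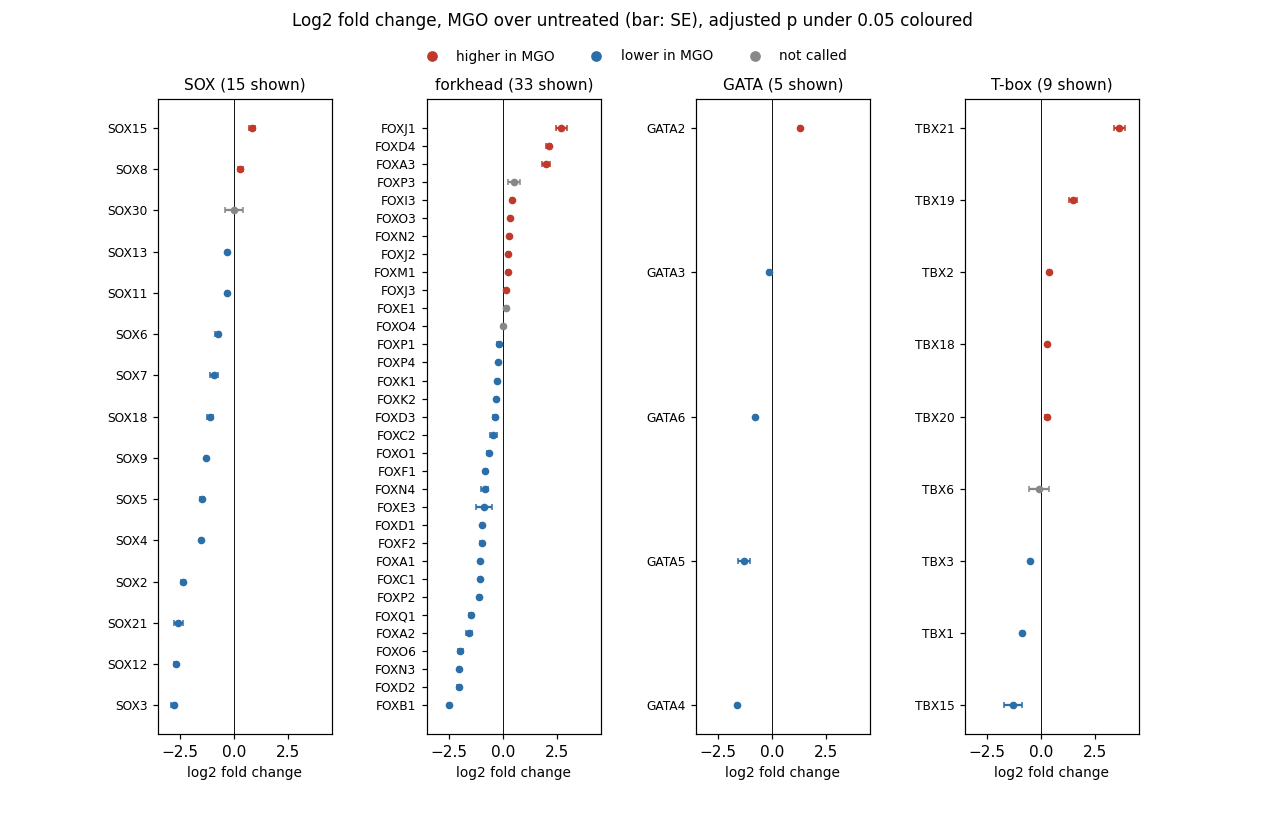
Log2 fold change of MGO over untreated libraries for 62 tested members, by family, with the SE as a bar and calls in colour. SOX3 at -2.79 and TBX21 at 3.62 mark the ends, and the signs of SOX30, FOXE1, FOXO4, FOXJ3 and TBX6, which lie near 0, turn under some alternatives.

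Summed over its members, the SOX family stood at 524 to 547 CPM in MGO and 984 to 1026 CPM in untreated libraries. Most of that sum came from SOX4, SOX11 and SOX12, which together averaged 454.5 CPM in MGO and 825.8 CPM in untreated libraries. The forkhead sum was 1189 to 1230 CPM in MGO and 1602 to 1612 CPM in untreated libraries, and the GATA sum 172 to 176 CPM in MGO and 218 to 223 CPM in untreated libraries. None of these ranges overlapped. The T-box sums were 162 to 173 CPM in MGO and 161 to 162 CPM in untreated libraries, and there the ranges overlapped.

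Both measurable members of SOX group B1, factors that keep neural progenitors undifferentiated, were among the largest falls. SOX2, which is also a pluripotency factor, had 6.30, 6.17 and 5.32 CPM in MGO libraries 1, 3 and 4, against 29.9, 29 and 31.9 CPM in untreated libraries 1, 2 and 4. Every MGO library lay far below every untreated one (log2 fold change -2.36, SE 0.0790, edgeR adjusted p = 1.30e-22). SOX3 had 1.49, 1.23 and 1.38 CPM in MGO libraries 1, 3 and 4, against 9.72, 8.80 and 9.91 CPM in untreated libraries 1, 2 and 4. The groups were again apart, with a 6.91-fold lower level in MGO, the largest fall of any tested member (SE 0.135, edgeR adjusted p = 1.77e-18). SOX21, a group B2 repressor that opposes group B1 in the neural tube, had 0.332, 0.859 and 0.713 CPM in MGO libraries 1, 3 and 4, against 3.54, 4.03 and 3.85 CPM in untreated libraries 1, 2 and 4. Its MGO values spread widely, from 6 to 16 counts, yet stayed under all untreated values (log2 fold change -2.57, SE 0.210, edgeR adjusted p = 1.17e-12). SOX1 (1 count in all) and SOX14 (3 counts in all), the other members of these groups, were below 10 counts.

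Group C, activators found in neuronal and mesenchymal progenitors, includes SOX4 and SOX11, the SOX genes with the highest level per kb in both groups, and its 3 genes fell by very different amounts. SOX12 had 15.3, 17.8 and 19.6 CPM in MGO libraries 1, 3 and 4, against 114, 113 and 115 CPM in untreated libraries 1, 2 and 4. It was 6.46-fold lower in MGO with no overlap (SE 0.0557 on the log2 scale, edgeR adjusted p = 1.84e-27). SOX4 had 102, 103 and 104 CPM in MGO libraries 1, 3 and 4, against 286, 302 and 302 CPM in untreated libraries 1, 2 and 4. The untreated libraries all lay near 300 CPM and the MGO libraries near 100 (log2 fold change -1.53, SE 0.0388, edgeR adjusted p = 9.96e-26). SOX11 had 328, 328 and 346 CPM in MGO libraries 1, 3 and 4, against 411, 435 and 399 CPM in untreated libraries 1, 2 and 4. Its groups were also apart, but by 1.24-fold (log2 fold change -0.31, SE 0.0377, edgeR adjusted p = 5.68e-09). The call did not pass a test against a fold of 1.5, and neither did those on other members with small differences. Level per kb of exon is a rough scale for comparing genes, as it counts every annotated exon, which no single transcript need hold. On this scale SOX11 stood at 38.3 CPM per kb in MGO and 47.6 in untreated libraries, SOX4 at 17.6 CPM per kb in MGO and 50.7 in untreated libraries and SOX12 at 3.79 CPM per kb in MGO and 24.6 in untreated libraries. SOX4 and SOX11 were thus close to each other in untreated libraries, and SOX11 was above SOX4 in MGO.

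The promoters of SOX3, SOX12 and SOX4 are shown because these genes fell strongly and yet differ in base composition. They are 300 bases of RefSeq sequence (GRCh38.p14), 250 before and 50 after the annotated start, read on the strand of the gene. Capitals mark matches on either strand to the GC box GGGCGG, to a CCAAT box, spelled as its name, or to the forkhead motif GTAAACA.
SOX3, minus strand, chrX:140505020-140505319: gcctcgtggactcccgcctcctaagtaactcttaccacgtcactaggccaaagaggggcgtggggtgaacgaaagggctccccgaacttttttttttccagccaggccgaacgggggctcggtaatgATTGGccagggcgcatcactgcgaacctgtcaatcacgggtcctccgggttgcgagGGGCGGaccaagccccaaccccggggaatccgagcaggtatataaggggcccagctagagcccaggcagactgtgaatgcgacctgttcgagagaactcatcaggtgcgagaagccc
SOX12, plus strand, chr20:325302-325601: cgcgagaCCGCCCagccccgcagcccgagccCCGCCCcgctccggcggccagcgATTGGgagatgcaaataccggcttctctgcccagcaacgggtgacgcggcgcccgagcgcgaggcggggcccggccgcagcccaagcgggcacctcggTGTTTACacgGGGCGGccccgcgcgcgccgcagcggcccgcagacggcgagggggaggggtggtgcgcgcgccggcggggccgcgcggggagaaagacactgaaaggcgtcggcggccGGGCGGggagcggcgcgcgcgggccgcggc
SOX4, plus strand, chr6:21593501-21593800: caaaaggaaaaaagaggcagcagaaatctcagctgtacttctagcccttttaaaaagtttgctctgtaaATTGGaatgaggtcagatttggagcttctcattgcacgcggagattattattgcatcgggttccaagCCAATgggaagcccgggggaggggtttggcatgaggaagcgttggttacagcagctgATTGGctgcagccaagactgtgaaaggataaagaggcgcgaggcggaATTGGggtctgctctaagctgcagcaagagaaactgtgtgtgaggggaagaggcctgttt
The SOX12 window was 80.3% G or C with 54 CpG dinucleotides, 4 GC boxes, 1 CCAAT box and 1 forkhead motif. The SOX4 window was 49.3% G or C with 8 CpG dinucleotides, 4 CCAAT boxes and no GC box, and the SOX3 window 60.3% with 20 CpG dinucleotides, 1 GC box and 1 CCAAT box. The SOX4 window lies wholly inside the single exon of the gene model used for exon lengths (bases 21592768 to 21598619 of chromosome 6). By that model it is exon sequence past the start, so its composition may not be that of a promoter. The SOX3 and SOX12 windows span the starts of their models. These genes were chosen because they fell and because their windows differ, and a link of composition to the falls was not tested.

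Group D proteins have no activation domain of their own and work with other SOX proteins, as SOX5 and SOX6 do with SOX9 in cartilage. SOX5 had 4.09, 4.51 and 3.99 CPM in MGO libraries 1, 3 and 4, against 10.9, 12.2 and 11.8 CPM in untreated libraries 1, 2 and 4. SOX6 had 3.59, 4.08 and 3.71 CPM in MGO libraries 1, 3 and 4, against 6.68, 6.46 and 6.08 CPM in untreated libraries 1, 2 and 4. Both were lower in MGO without overlap (log2 fold change -1.47, edgeR adjusted p = 8.45e-15 for SOX5, and log2 fold change -0.76, edgeR adjusted p = 3.36e-07 for SOX6). SOX13 had 18.8, 16.7 and 18.4 CPM in MGO libraries 1, 3 and 4, against 21.0, 23.0 and 22.7 CPM in untreated libraries 1, 2 and 4. The difference was small (log2 fold change -0.31, SE 0.0644, edgeR adjusted p = 7.33e-05), though all MGO values were under all untreated ones.

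In group E, the cartilage, gonad and neural crest factors, SOX9 and SOX8 parted. SOX9, a regulator of cartilage and of progenitors in several epithelia, had 30.8, 29.95 and 31.4 CPM in MGO libraries 1, 3 and 4, against 74.9, 76.6 and 77.8 CPM in untreated libraries 1, 2 and 4. The MGO libraries were tightly grouped, far below the untreated ones (log2 fold change -1.31, SE 0.0462, edgeR adjusted p = 4.52e-22). SOX8 had 4.14, 3.54 and 4.42 CPM in MGO libraries 1, 3 and 4, against 2.95, 3.49 and 3.48 CPM in untreated libraries 1, 2 and 4. MGO values were slightly higher without overlap (log2 fold change 0.29, SE 0.131, edgeR adjusted p = 0.0400), but the call was lost in 8 of 18 alternatives, among them without MGO replicate 1 (edgeR adjusted p = 0.111), without MGO replicate 4 (0.279) and without untreated replicate 1 (0.165), adjusted p over alternatives 0.0123 to 1. SOX10, the neural crest member, had 29 counts in all and was not tested.

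The remaining SOX genes were low. SOX18, a group F factor of blood and lymphatic vessels, had 3.70, 4.08 and 2.38 CPM in MGO libraries 1, 3 and 4, against 7.65, 6.96 and 7.05 CPM in untreated libraries 1, 2 and 4. All MGO libraries were lower (log2 fold change -1.11, SE 0.131, edgeR adjusted p = 6.36e-09). SOX7 of the same group stood at 1.25 ± 0.272 CPM in MGO and 2.41 ± 0.0913 CPM in untreated libraries (n = 3 each) and was also lower (log2 fold change -0.93, edgeR adjusted p = 3.84e-05). SOX15, the only group G gene, went the other way with 3.70, 3.44 and 3.99 CPM in MGO libraries 1, 3 and 4, against 2.29, 2.09 and 1.86 CPM in untreated libraries 1, 2 and 4. Every MGO library was above every untreated one (log2 fold change 0.84, SE 0.145, edgeR adjusted p = 4.41e-06). SOX30, a factor of male germ cells, stood at 0.374 CPM in MGO against 0.383 CPM in untreated libraries and was not called (edgeR adjusted p = 0.959), while SOX17 had 1 count in all.

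**Figure D3:**
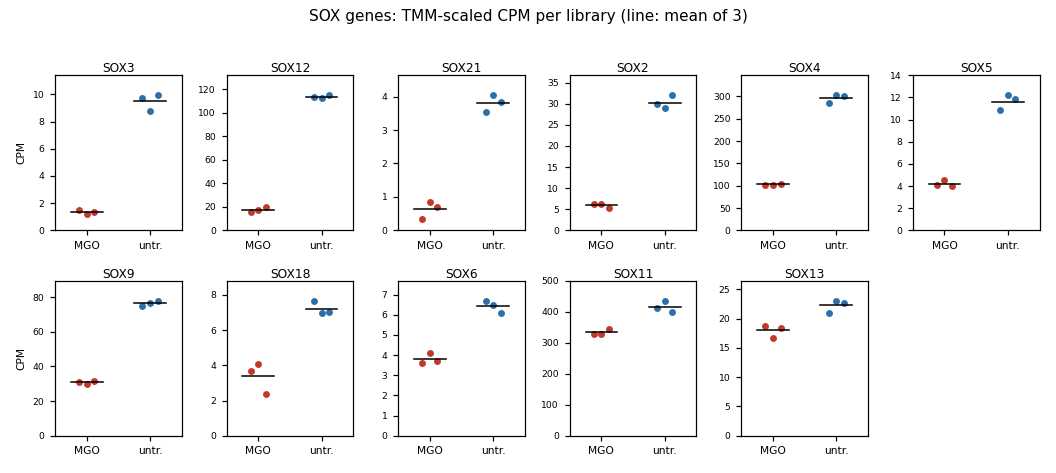
TMM-scaled CPM of the 11 SOX genes described in full, each panel with the 3 MGO libraries (red) left of the 3 untreated libraries (blue) and a line at the mean. All 11 were lower in MGO without overlap, by most in SOX3 and by least in SOX13 and SOX11.

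The SOX gene models that have a single exon all fell. SOX2, SOX3, SOX4, SOX11, SOX12 and SOX21, each with 1 exon in GENCODE 29, were 6 of 6 lower with a median log2 fold change of -2.46, whereas of the 9 tested SOX genes with several exons 6 were lower, 2 higher and 1 not called (median -0.76). Among forkhead genes 6 of 8 with a single exon were lower (75.0%) and 16 of 26 with several exons (61.5%). Over all 4 families, 12 of 14 single-exon members were lower (85.7%), 1 higher and 1 not called. Of the 49 members with several exons 29 were lower (59.2%), 16 higher and 4 not called. The tested GATA and T-box genes all have several exons, so this last contrast also mixes families. Over all protein-coding genes tested, 156 of 278 single-exon genes were lower (56.1%) and 6016 of 13192 with several exons (45.6%).

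POU partners of SOX2 in neural cells were lower as well. POU3F2 stood at 8.93 ± 1.33 CPM in MGO and 70.3 ± 1.55 CPM in untreated libraries and POU3F3 at 6.38 ± 0.698 CPM in MGO and 44.1 ± 0.841 CPM in untreated libraries (n = 3 each, log2 fold change -2.97, edgeR adjusted p = 4.30e-27 for POU3F2 and log2 fold change -2.79, edgeR adjusted p = 1.23e-25 for POU3F3). The widely expressed POU2F1 was slightly higher (log2 fold change 0.11, edgeR adjusted p = 0.0217), and POU3F1, which is scarcer, was also higher (5.43 CPM in MGO against 2.30 CPM in untreated libraries, log2 fold change 1.24, edgeR adjusted p = 2.65e-10). In the list of SOX partners and targets 11 of 15 tested genes were lower, 4 higher and none was left uncalled (median log2 fold change -0.32). These shares were 73.3% lower and 26.7% higher, where 41.2% of all genes tested were lower and 41.8% higher. COL2A1, the cartilage collagen gene activated by SOX9, was lower (57.4 ± 7.43 CPM in MGO and 177 ± 9.33 CPM in untreated libraries, log2 fold change -1.63, edgeR adjusted p = 8.64e-08). CLDN5, an endothelial claudin (3.15 CPM in MGO against 0.242 CPM in untreated libraries, log2 fold change 3.69, edgeR adjusted p = 5.09e-15), and TUBB3, a neuronal tubulin (4.68 CPM in MGO against 1.03 CPM in untreated libraries, log2 fold change 2.18, edgeR adjusted p = 4.66e-14), were scarce and higher.

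FOXB1 and FOXD2 had the largest falls among forkhead genes. FOXB1, a factor of the developing hypothalamus and spinal cord in mice, had 4.09, 5.10 and 5.27 CPM in MGO libraries 1, 3 and 4, against 27.2, 25.9 and 27.3 CPM in untreated libraries 1, 2 and 4. The MGO libraries held about 5 CPM each and did not approach the untreated ones (log2 fold change -2.47, SE 0.0836, edgeR adjusted p = 1.66e-22). FOXD2, found in facial and kidney mesenchyme in mice, had 5.47, 3.87 and 5.27 CPM in MGO libraries 1, 3 and 4, against 19.99, 21.1 and 19.3 CPM in untreated libraries 1, 2 and 4. Its MGO values were lower throughout (log2 fold change -2.04, SE 0.0928, edgeR adjusted p = 3.38e-19). FOXP2, known for its part in speech circuits, had 12.4, 12.5 and 10.7 CPM in MGO libraries 1, 3 and 4, against 24.8, 25.1 and 26.6 CPM in untreated libraries 1, 2 and 4. It was a little over 2-fold lower with no overlap (log2 fold change -1.11, SE 0.0690, edgeR adjusted p = 1.33e-15). FOXQ1, an epithelial factor, had 5.86, 5.69 and 4.66 CPM in MGO libraries 1, 3 and 4, against 14.6, 15.3 and 14.5 CPM in untreated libraries 1, 2 and 4, and its groups stayed apart (log2 fold change -1.46, edgeR adjusted p = 1.01e-15).

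The FOXA genes, pioneer factors of endoderm, did not move as one. FOXA1 had 34.4, 37.0 and 36.1 CPM in MGO libraries 1, 3 and 4, against 74.0, 74.2 and 73.9 CPM in untreated libraries 1, 2 and 4. Untreated values were nearly identical to each other and all MGO values were far lower (log2 fold change -1.04, SE 0.0452, edgeR adjusted p = 1.01e-19). FOXA2 had 2.38, 2.20 and 1.66 CPM in MGO libraries 1, 3 and 4, against 6.36, 5.52 and 6.29 CPM in untreated libraries 1, 2 and 4, lower without overlap (log2 fold change -1.55, SE 0.140, edgeR adjusted p = 1.08e-11). FOXA3 had 3.76, 4.35 and 3.37 CPM in MGO libraries 1, 3 and 4, against 0.992, 0.710 and 1.24 CPM in untreated libraries 1, 2 and 4. All MGO libraries were higher (log2 fold change 1.96, SE 0.183, edgeR adjusted p = 2.47e-11), on untreated counts of only 34 to 53 per library.

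FOXC, FOXD1 and FOXF genes act in mesoderm, mesenchyme and kidney. FOXC1, needed for eye, heart and kidney development, was the forkhead gene with the highest level per kb in both groups (39.1 CPM per kb in MGO and 81.6 in untreated libraries). Per library it had 168, 146 and 148 CPM in MGO libraries 1, 3 and 4, against 308, 324 and 329 CPM in untreated libraries 1, 2 and 4. MGO library 1 was the highest of the MGO libraries and still far below the untreated ones (log2 fold change -1.06, SE 0.0453, edgeR adjusted p = 3.32e-17). FOXC2, its close relative, stood at 2.59 ± 0.402 CPM in MGO and 3.55 ± 0.346 CPM in untreated libraries (n = 3 each) and was lower (log2 fold change -0.44, edgeR adjusted p = 0.00640), a call lost with untreated libraries thinned to MGO depth (edgeR adjusted p = 0.0690, adjusted p over alternatives 7.79e-05 to 0.904). FOXD1, the marker of kidney stroma, had 36.6, 36.5 and 34.8 CPM in MGO libraries 1, 3 and 4, against 69.6, 69.5 and 71.0 CPM in untreated libraries 1, 2 and 4. The fall was close to 2-fold with tight groups (log2 fold change -0.96, SE 0.0454, edgeR adjusted p = 9.43e-19). FOXF1 had 8.90, 10.6 and 10.4 CPM in MGO libraries 1, 3 and 4, against 17.2, 16.8 and 18.6 CPM in untreated libraries 1, 2 and 4. FOXF2 had 24.0, 24.5 and 23.8 CPM in MGO libraries 1, 3 and 4, against 50.7, 46.1 and 46.2 CPM in untreated libraries 1, 2 and 4. These hedgehog-responsive mesenchymal factors were both lower without overlap (log2 fold change -0.81, edgeR adjusted p = 3.78e-11 for FOXF1, and log2 fold change -0.98, edgeR adjusted p = 6.55e-17 for FOXF2). FOXD3, a neural crest factor, had 6.85, 8.48 and 6.32 CPM in MGO libraries 1, 3 and 4, against 8.95, 9.03 and 9.54 CPM in untreated libraries 1, 2 and 4, a smaller fall without overlap (log2 fold change -0.35, edgeR adjusted p = 0.00142).

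In 3 of 4 groups of neighbouring forkhead genes, which span 24.6 to 974 kb, every tested gene was lower. Gene by gene, 64.7% of all tested forkhead genes were lower, which is not a share of groups. The calls on FOXE3 and FOXC2 were lost under some alternatives, and a part of position was not tested. FOXQ1, FOXF2 and FOXC1 lie within 301.5 kb on chromosome 6 (chr6:1312440-1314748, chr6:1389576-1395603 and chr6:1609972-1613897, GENCODE 29 on GRCh38), and all 3 were lower, by log2 fold changes of -1.46, -0.98 and -1.06. FOXF1 and FOXC2 lie within 71.6 kb on chromosome 16 together with FOXL1, and had log2 fold changes of -0.81 and -0.44, while FOXL1 (55 counts in all) was not tested. FOXE3 and FOXD2 share 24.6 kb of chromosome 1 and had log2 fold changes of -0.88 and -2.04. By contrast FOXO6 and FOXJ3, within 974 kb of chromosome 1, had log2 fold changes of -1.96 and 0.14. SOX7 and GATA4 lie within 1036.2 kb on chromosome 8 and were both lower.

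The FOXO genes, which insulin signalling holds out of the nucleus through AKT, differed from member to member. FOXO1 had 18.0, 18.9 and 19.1 CPM in MGO libraries 1, 3 and 4, against 29, 31.7 and 27.2 CPM in untreated libraries 1, 2 and 4. All MGO values were lower (log2 fold change -0.65, SE 0.0642, edgeR adjusted p = 7.93e-11). FOXO3, the most abundant of the 4, had 159.7, 159.9 and 163 CPM in MGO libraries 1, 3 and 4, against 124, 131 and 130.2 CPM in untreated libraries 1, 2 and 4. Here all MGO values were higher (log2 fold change 0.33, SE 0.0380, edgeR adjusted p = 3.33e-09), although reads may be shared with its near-copy FOXO3B (8.94 CPM in MGO against 3.79 CPM in untreated libraries). FOXO4 had 30.6, 28.0 and 26.5 CPM in MGO libraries 1, 3 and 4, against 28.2, 28.5 and 27.6 CPM in untreated libraries 1, 2 and 4, overlapping and not called (edgeR adjusted p = 0.884). FOXO6 had 2.82, 3.44 and 3.37 CPM in MGO libraries 1, 3 and 4, against 13.2, 11.8 and 12.6 CPM in untreated libraries 1, 2 and 4. It was lower without overlap (log2 fold change -1.96, SE 0.105, edgeR adjusted p = 2.42e-17). Per kb the order in untreated libraries was FOXO3, FOXO4, FOXO6 and FOXO1, at 16.6, 8.16, 5.23 and 4.70 CPM per kb, and in MGO libraries FOXO3, FOXO4, FOXO1 and FOXO6, at 20.8, 8.23, 2.99 and 1.34.

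Genes around FOXO were as divided. Among 28 tested FOXO targets 10 were higher, 17 lower and 1 not called (median log2 fold change -0.24). That was 35.7% higher and 60.7% lower, where 41.8% of all genes tested were higher and 41.2% lower. KLF6, a Kruppel-like factor (228 CPM in MGO against 27.2 CPM in untreated libraries), GADD45A, a growth arrest gene (296 CPM in MGO against 36.9 CPM in untreated libraries), and TXNIP, an inhibitor of thioredoxin (114 CPM in MGO against 19.2 CPM in untreated libraries), had the largest rises, with log2 fold changes of 3.07, 3.00 and 2.57. TRIB2, a pseudokinase (12.3 CPM in MGO against 92.0 CPM in untreated libraries), CCND1, a G1 cyclin (15.0 CPM in MGO against 52.7 CPM in untreated libraries), and SESN1, a sestrin (18.9 CPM in MGO against 64.9 CPM in untreated libraries), had the largest falls among genes of at least 5 CPM, at -2.91, -1.82 and -1.77. Of 20 kinases, 14-3-3 proteins and other regulators of FOXO 7 were higher, 10 lower and 3 not called (median -0.09). At 35% higher and 50% lower, this split was not far from that of all genes tested. Those that rose most were the deacetylase SIRT1 (log2 fold change 1.11), the kinase SGK1 (0.95) and the mTORC2 subunit RICTOR (0.26), and those that fell most were the ubiquitin ligase subunit SKP2 (-1.42) and the kinases SGK3 (-1.12) and AKT2 (-0.81).

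FOXM1, FOXK1, FOXK2, FOXJ2, FOXJ3, FOXP1 and FOXP4 all differed by less than 1.5-fold. FOXM1, which drives genes of the G2 and M phases, had 159.6, 174 and 177 CPM in MGO libraries 1, 3 and 4, against 154, 144 and 145 CPM in untreated libraries 1, 2 and 4. MGO values were slightly higher without overlap (log2 fold change 0.21, SE 0.0421, edgeR adjusted p = 4.38e-05), but the call was lost with library size as the only scaling (edgeR adjusted p = 0.0516, adjusted p over alternatives 6.19e-09 to 1). FOXK1 had 42.5, 43.1 and 47.5 CPM in MGO libraries 1, 3 and 4, against 55.0, 52.5 and 51.7 CPM in untreated libraries 1, 2 and 4. FOXK2 had 104, 119.9 and 126 CPM in MGO libraries 1, 3 and 4, against 146, 143 and 147 CPM in untreated libraries 1, 2 and 4. These repressors of autophagy genes were both slightly lower without overlap (log2 fold change -0.26, edgeR adjusted p = 1.86e-05 for FOXK1, and log2 fold change -0.32, edgeR adjusted p = 5.41e-06 for FOXK2). FOXJ2 had 40.8, 40.7 and 42.0 CPM in MGO libraries 1, 3 and 4, against 34.2, 34.5 and 35.0 CPM in untreated libraries 1, 2 and 4, and it was higher without overlap (log2 fold change 0.25, edgeR adjusted p = 1.78e-05), a call lost with no filter on low counts (edgeR adjusted p = 0.278, adjusted p over alternatives 2.06e-06 to 1). FOXJ3 had 87.5, 84.5 and 96.2 CPM in MGO libraries 1, 3 and 4, against 82.9, 81.0 and 79.9 CPM in untreated libraries 1, 2 and 4. It was called higher (log2 fold change 0.14, edgeR adjusted p = 0.00364), but not without MGO replicate 4 (edgeR adjusted p = 0.339, adjusted p over alternatives 3.20e-04 to 1), and its sign turned with no filter on low counts. FOXP1 had 23.1, 23.1 and 23.1 CPM in MGO libraries 1, 3 and 4, against 26.3, 27.8 and 25.4 CPM in untreated libraries 1, 2 and 4. FOXP4 had 87.8, 96.5 and 90.1 CPM in MGO libraries 1, 3 and 4, against 106, 105 and 105 CPM in untreated libraries 1, 2 and 4. Both FOXP genes were lower without overlap (log2 fold change -0.20, edgeR adjusted p = 0.00220 for FOXP1, and log2 fold change -0.21, edgeR adjusted p = 2.16e-05 for FOXP4).

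In a subfamily with FOXN4 also lower and FOXN2 higher, the largest fall was that of FOXN3. This repressor, linked to the DNA damage checkpoint, had 17.2, 16.6 and 18.1 CPM in MGO libraries 1, 3 and 4, against 73.3, 71.4 and 68.3 CPM in untreated libraries 1, 2 and 4. It was 4.10-fold lower with no overlap (log2 fold change -2.04, SE 0.0540, edgeR adjusted p = 2.98e-25). FOXN2 had 27.8, 29.3 and 29 CPM in MGO libraries 1, 3 and 4, against 23.0, 24.5 and 24.2 CPM in untreated libraries 1, 2 and 4, and it was higher (log2 fold change 0.26, SE 0.0554, edgeR adjusted p = 6.64e-05), a call lost with no filter on low counts (edgeR adjusted p = 0.252, adjusted p over alternatives 9.43e-06 to 1). FOXN4, a factor of retinal progenitors, stood at 1.47 ± 0.0420 CPM in MGO and 2.63 ± 0.0360 CPM in untreated libraries (n = 3 each) and was lower (log2 fold change -0.84, edgeR adjusted p = 3.94e-05).

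Partners and targets of FOXM1 were mostly higher. Of 22 MuvB partners and G2/M targets 15 were higher, 6 lower and 1 not called, with a median log2 fold change of 0.26. That was 68.2% higher and 27.3% lower, where 41.8% of all genes tested were higher and 41.2% lower. The largest rises were those of the MuvB subunit LIN37 (8.50 CPM in MGO against 2.67 CPM in untreated libraries), the kinetochore protein CENPF (168 CPM in MGO against 79.8 CPM in untreated libraries) and the spindle protein TPX2 (444 CPM in MGO against 218 CPM in untreated libraries), with log2 fold changes of 1.67, 1.07 and 1.03. The MuvB subunits LIN52 (log2 fold change -0.73) and RBBP4 (-0.60) and the centromeric histone CENPA (-0.44) had the largest falls.

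A few forkhead genes rose. FOXJ1, the regulator of motile cilia, had 1.82, 2.09 and 2.61 CPM in MGO libraries 1, 3 and 4, against 0.367, 0.293 and 0.352 CPM in untreated libraries 1, 2 and 4. Its untreated libraries held only 14 to 17 counts each, and every MGO library was above them (log2 fold change 2.69, SE 0.248, edgeR adjusted p = 1.83e-11). FOXD4 had 8.73, 8.05 and 7.65 CPM in MGO libraries 1, 3 and 4, against 1.47, 2.13 and 2.09 CPM in untreated libraries 1, 2 and 4. It was higher in every MGO library (log2 fold change 2.10, SE 0.129, edgeR adjusted p = 9.38e-16), but it has near-identical copies in the FOXD4L genes, so its reads are uncertain. FOXI3, a factor of ear and skin appendages, had 30.4, 31.5 and 32.9 CPM in MGO libraries 1, 3 and 4, against 23.2, 23.3 and 25.1 CPM in untreated libraries 1, 2 and 4, higher without overlap (log2 fold change 0.41, SE 0.0557, edgeR adjusted p = 7.11e-08). FOXE1, the thyroid factor, had 8.01, 10.2 and 11.8 CPM in MGO libraries 1, 3 and 4, against 9.53, 9.01 and 9.04 CPM in untreated libraries 1, 2 and 4. The groups overlapped and it was not called (edgeR adjusted p = 0.205), but without MGO replicate 1 it was higher (edgeR adjusted p = 0.0133, adjusted p over alternatives 0.00749 to 1).

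The other forkhead members were low. FOXE3, a lens factor, stood at 0.278 CPM in MGO against 0.512 CPM in untreated libraries and was called lower (log2 fold change -0.88, edgeR adjusted p = 0.0361), and that call was lost in 9 of 16 alternatives, among them without MGO replicate 1 (edgeR adjusted p = 0.114), without MGO replicate 4 (0.111) and without each untreated replicate in turn (0.0590, 0.0562 and 0.0593, adjusted p over alternatives 0.0185 to 0.178). FOXP3, the factor of regulatory T cells, stood at 0.884 CPM in MGO against 0.620 CPM in untreated libraries and was not called (edgeR adjusted p = 0.115), except without untreated replicate 2 (0.0491, adjusted p over alternatives 0.0491 to 0.581). FOXB2 (64 counts in all), FOXL1 (55), FOXH1 (18) and FOXL2 (12) did not pass the filter. FOXS1 (9 counts in all), FOXN1 (4), FOXR1 (4), FOXR2 (2), FOXI1 (1) and FOXI2 (0) were below 10 counts.

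**Figure D4:**
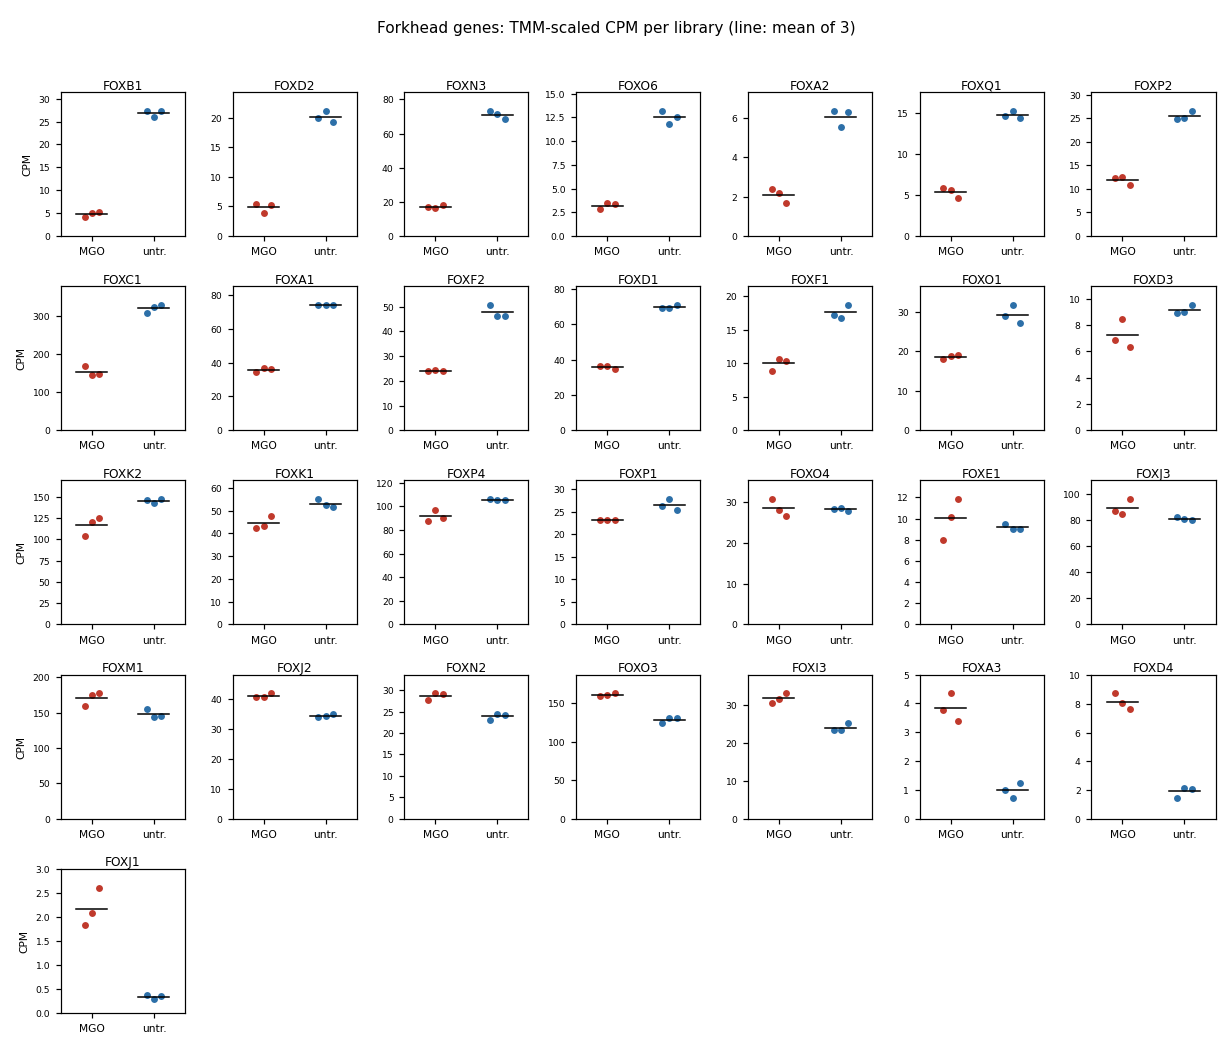
TMM-scaled CPM of the 29 forkhead genes described in full, ordered by log2 fold change, with MGO libraries (red) left of untreated libraries (blue) and a line at each mean. FOXB1 fell most and FOXJ1 rose most, and FOXO4 and FOXE1 overlapped between groups.

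Among the GATA genes GATA2 alone was called higher. GATA2, a factor of blood progenitors and of the urogenital tract, had 56.7, 58.9 and 56.4 CPM in MGO libraries 1, 3 and 4, against 23.6, 23.8 and 23.4 CPM in untreated libraries 1, 2 and 4. Each group was tight and the MGO libraries were far above the untreated ones (log2 fold change 1.28, SE 0.0479, edgeR adjusted p = 2.28e-21). Its raw counts were about level, at 1026, 1098 and 1186 counts in MGO and 1096, 1141 and 995 in untreated libraries, so the difference is in its share of a library. GATA3, a factor of T cells and the renal collecting duct, had 34.5, 33.0 and 36.8 CPM in MGO libraries 1, 3 and 4, against 36.0, 39.1 and 38.7 CPM in untreated libraries 1, 2 and 4. The groups overlapped, with MGO library 4 above untreated library 1. The small fall was called (log2 fold change -0.12, SE 0.0530, edgeR adjusted p = 0.0352) but lost in 10 of 18 alternatives, among them without MGO replicate 3 (edgeR adjusted p = 0.0902), without untreated replicate 2 (0.113) and without untreated replicate 4 (0.0875, adjusted p over alternatives 2.75e-08 to 1).

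The cardiac and endodermal members all fell. GATA4 had 12.8, 13.3 and 12.1 CPM in MGO libraries 1, 3 and 4, against 38.3, 38.9 and 39.5 CPM in untreated libraries 1, 2 and 4. The MGO level was 3.07-fold lower without overlap (log2 fold change -1.62, SE 0.0608, edgeR adjusted p = 2.53e-21). GATA6, the most abundant GATA transcript per kb (17.3 CPM per kb in MGO and 30.2 in untreated libraries), had 67.5, 67.8 and 69.8 CPM in MGO libraries 1, 3 and 4, against 119, 119.6 and 119 CPM in untreated libraries 1, 2 and 4. It was lower in every MGO library (log2 fold change -0.80, SE 0.0386, edgeR adjusted p = 1.70e-18). GATA5 stood at 0.478 ± 0.123 CPM in MGO and 1.20 ± 0.140 CPM in untreated libraries (n = 3 each) and was lower as well (log2 fold change -1.30, SE 0.282, edgeR adjusted p = 1.04e-04). GATA1, the erythroid factor, had 10 counts in all and was not tested. In untreated libraries GATA4 stood above GATA2 per kb, at 2.86 CPM per kb in MGO and 8.76 in untreated libraries for GATA4 and 12.9 CPM per kb in MGO and 5.30 in untreated libraries for GATA2.

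Cofactors of GATA proteins were mostly lower. Of 12 tested genes 9 were lower, 2 higher and 1 not called (median log2 fold change -0.60). That was 75% lower and 16.7% higher, where 41.2% of all genes tested were lower and 41.8% higher. LMO4, a LIM-only adaptor, stood at 36.1 CPM in MGO against 104 CPM in untreated libraries, ZFPM2, the FOG cofactor of GATA4, at 7.08 CPM in MGO against 15.2 CPM in untreated libraries, and the E protein TCF3 at 116 CPM in MGO against 196 CPM in untreated libraries, and these were the largest falls among genes that averaged at least 5 CPM (log2 fold changes -1.53, -1.11 and -0.76). The Mediator subunit MED1 (log2 fold change 0.81) and the corepressor RCOR1 (0.23) were higher.

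T-box genes held the largest rise of all members. TBX21, the T-bet factor of T helper cells, had 3.59, 2.85 and 3.14 CPM in MGO libraries 1, 3 and 4, against 0.172, 0.251 and 0.352 CPM in untreated libraries 1, 2 and 4. Untreated libraries held only 8 to 15 counts each and every MGO library held 53 to 66, a 12.3-fold higher scaled level (log2 fold change 3.62, SE 0.242, edgeR adjusted p = 8.04e-15). TBX19, the pituitary factor that turns on the POMC gene, had 3.09, 3.11 and 2.90 CPM in MGO libraries 1, 3 and 4, against 1.03, 1.13 and 1.10 CPM in untreated libraries 1, 2 and 4. It was higher in every MGO library (log2 fold change 1.47, SE 0.169, edgeR adjusted p = 2.39e-09). The lymphoid markers PTPRC (0.0864 CPM in MGO against 0.0235 CPM in untreated libraries) and CD3E (1, 1 and 0 counts in MGO and 0, 0 and 0 in untreated libraries) were at or near 0.

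The promoters of GATA2 and TBX21 are shown as those of the gene with the highest level per kb among those that rose at least 2-fold and of the gene that rose most. Capitals mark matches to the GC box GGGCGG on either strand, the single motif of those searched that was found in them.
GATA2, minus strand, chr3:128493152-128493451: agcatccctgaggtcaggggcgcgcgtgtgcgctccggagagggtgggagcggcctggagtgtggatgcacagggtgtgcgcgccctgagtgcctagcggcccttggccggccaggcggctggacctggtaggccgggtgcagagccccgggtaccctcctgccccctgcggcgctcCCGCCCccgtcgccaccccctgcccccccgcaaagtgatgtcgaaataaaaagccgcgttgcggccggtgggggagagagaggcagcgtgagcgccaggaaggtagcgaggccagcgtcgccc
TBX21, plus strand, chr17:47732986-47733285: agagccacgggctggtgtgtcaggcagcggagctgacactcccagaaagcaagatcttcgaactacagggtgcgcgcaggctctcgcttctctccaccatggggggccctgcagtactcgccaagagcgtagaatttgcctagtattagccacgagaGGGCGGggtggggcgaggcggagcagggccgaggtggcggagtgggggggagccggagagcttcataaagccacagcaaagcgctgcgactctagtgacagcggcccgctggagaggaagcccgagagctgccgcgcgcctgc
The GATA2 window was 72.3% G or C with 29 CpG dinucleotides and the TBX21 window 65.0% with 23. Each held 1 GC box, as the SOX3 window did, but these genes were picked for their rise or fall. RefSeq promoters were matched by symbol for 50 of the 72 members and 44 of the 63 tested ones. A GC box on either strand stood in 8 of 11 promoters of higher members and 20 of 28 of lower members, and in 44.6% of all 27305 promoters of this length. A CCAAT box stood in 2 of 11 promoters of higher and 12 of 28 of lower members, and in 35.7% of all. The 12 lower members include SOX4, whose window lies inside the exon of its gene model. The TATA box TATAAA was found in 1 higher, 1 lower and 1 uncalled member, and in 12% of all promoters. The ATF4 and C/EBP composite site TGATGCAA was found in none of the 44 (0.923% of all), and the CRE TGACGTCA in 1, FOXD3 (1.98% of all). Motifs of the 4 families themselves were rare in these windows. GTAAACA for forkhead proteins was found in 2 of 44, SOX12 and FOXO4 (3.41% of all). AGATAA for GATA proteins was found in 3, TBX19, FOXF2 and FOXP2 (10.5% of all). AACAATG for SOX proteins was found in 1, SOX5 (3.38% of all), and AGGTGTGA for T-box proteins in 1, FOXB1 (0.982% of all). These motifs were searched on both strands and none contains another.

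The more abundant T-box genes changed less. TBX18, a factor of ureter mesenchyme and epicardium, had 78.1, 73.8 and 74.7 CPM in MGO libraries 1, 3 and 4, against 60.1, 62.5 and 60.9 CPM in untreated libraries 1, 2 and 4. All MGO values were higher (log2 fold change 0.30, SE 0.0412, edgeR adjusted p = 6.25e-08). TBX2, a repressor that delays senescence, had 38.0, 33.9 and 33.2 CPM in MGO libraries 1, 3 and 4, against 28.0, 27.0 and 26.1 CPM in untreated libraries 1, 2 and 4. It was also higher without overlap (log2 fold change 0.37, SE 0.0560, edgeR adjusted p = 4.49e-07). TBX3, its closest relative, had 27.3, 27.6 and 27.1 CPM in MGO libraries 1, 3 and 4, against 38.4, 38.2 and 40.8 CPM in untreated libraries 1, 2 and 4. It went the other way, lower in every MGO library (log2 fold change -0.52, SE 0.0524, edgeR adjusted p = 1.63e-10). TBX1, the pharyngeal factor tied to 22q11 deletion, had 16.2, 14.1 and 14.4 CPM in MGO libraries 1, 3 and 4, against 28.3, 25.7 and 26.7 CPM in untreated libraries 1, 2 and 4. It was lower without overlap (log2 fold change -0.85, SE 0.0661, edgeR adjusted p = 3.22e-13). TBX20, a heart factor, had 5.97, 6.23 and 5.89 CPM in MGO libraries 1, 3 and 4, against 5.17, 4.60 and 5.17 CPM in untreated libraries 1, 2 and 4. The small rise was called (log2 fold change 0.28, SE 0.106, edgeR adjusted p = 0.0177) but not without MGO replicate 3 (edgeR adjusted p = 0.0921), MGO replicate 4 (0.0529) or untreated replicate 2 (0.0947), nor with library size as the only scaling (0.130, adjusted p over alternatives 0.00364 to 1).

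The remaining T-box genes were scarce. TBX15 stood at 0.229 CPM in MGO against 0.558 CPM in untreated libraries and was lower (log2 fold change -1.29, edgeR adjusted p = 0.00430). TBX6, a factor of the presomitic mesoderm, stood at 0.361 CPM in MGO against 0.380 CPM in untreated libraries and was not called (edgeR adjusted p = 0.862). TBX4 (35 counts in all), TBX5 (16) and TBX10 (13) did not pass the filter, and TBX22 had 0 counts.

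**Figure D5:**
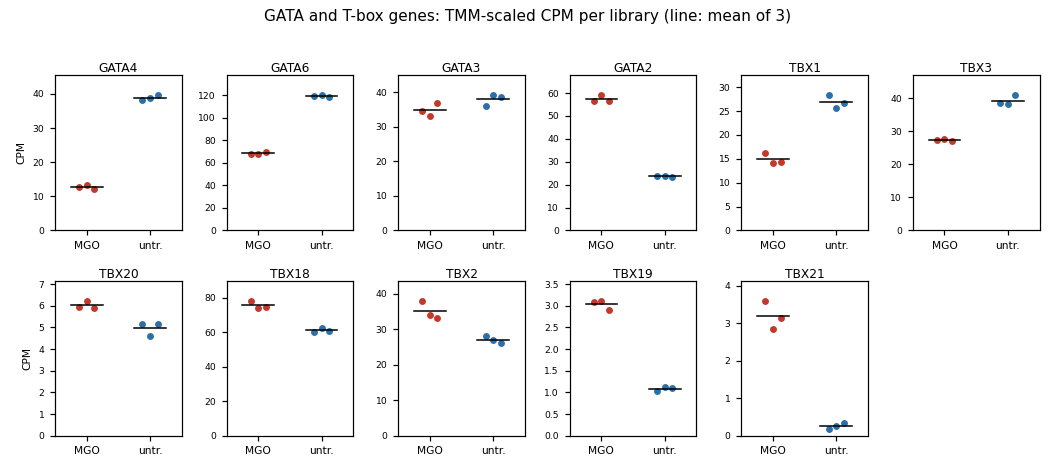
TMM-scaled CPM of the 4 GATA and 7 T-box genes described in full, with MGO libraries (red) left of untreated libraries (blue) and a line at each mean. GATA2, TBX19 and TBX21 were at least 2-fold higher in MGO, GATA4 was at least 2-fold lower, and GATA3 overlapped between groups.

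Per kb, the most abundant members changed order between the groups. In untreated libraries FOXC1 (81.6 CPM per kb), SOX4 (50.7), SOX11 (47.6), GATA6 (30.2) and FOXM1 (30.1) led. In MGO libraries FOXC1 (39.1) and SOX11 (38.3) were nearly level, followed by FOXM1 (34.8), FOXO3 (20.8) and SOX4 (17.6).

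Other developmental factors of the kidney and urogenital tract were mostly lower. Of 25 tested genes of that list 19 were lower, 5 higher and 1 not called (median log2 fold change -1.0). That was 76% lower and 20% higher, where 41.2% of all genes tested were lower and 41.8% higher. PAX2 (2.77 CPM in MGO against 13.2 CPM in untreated libraries), SIX2 of nephron progenitors (2.17 CPM in MGO against 9.30 CPM in untreated libraries) and the growth factor BMP4 (1.98 CPM in MGO against 8.40 CPM in untreated libraries) had the largest falls among genes of at least 5 CPM, with log2 fold changes of -2.24, -2.10 and -2.09. IRX5 (42.8 CPM in MGO against 16.8 CPM in untreated libraries), SIX4 (50.5 CPM in MGO against 26.7 CPM in untreated libraries) and EYA3 (49.6 CPM in MGO against 26.9 CPM in untreated libraries) had the largest rises at that level, at 1.35, 0.92 and 0.88.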

How the data were processed

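Column-purified total RNA from 6 libraries of HEK293T cells labelled as a GLO1 knockout (3 MGO, 3 untreated) was poly(A)-selected and sequenced in paired reads, per the labels' protocols. For each library the authors deposited a table of raw counts by gene symbol. Trim Galore, STAR 2.4, Picard, HTSeq 0.9.1 and genome build hg38 are named, per the submitters' processing notes. Neither the annotation nor a strand setting for counting is stated there, so antisense and overlapping genes and near-copies are uncertain. No molecular identifiers are mentioned, so PCR copies may be among the counts.

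All rows were fitted with edgeR 4.0.16 in R 4.3.3, using filterByExpr (17415 genes kept), TMM, robust glmQLFit and a two-sided glmQLFTest with no covariate, with Benjamini-Hochberg adjustment over all genes tested at 0.05. SEs were derived from each log2 fold change and the root of its F statistic. CPM per kb divides the mean CPM by the union exon length in GENCODE 29, which matched all 72 members by symbol. Members described in full averaged at least 5 CPM, or were called at least 2-fold and averaged at least 1 CPM, and 1 forkhead gene that met this rule is counted but not reported here. From other lists up to 3 rises and 3 falls with the largest log2 fold change among called genes of at least 5 CPM were taken, and GLO1, marker genes, POU3F1, CLDN5, TUBB3, MGA, EOMES, TBR1 and FOXO3B were added after their values were seen. The members and lists were chosen with earlier results of these data known. The test was tried on simulated counts. Alternatives used scaling by RLE, by upper quartile or by library size, no filter, at least 1 CPM in every library, each library left out, the replicate number as a block, DESeq2 1.42.0, limma voom (limma 3.58.1), a test against a fold of 1.5, no robust shrinkage and thinned untreated libraries. Leaving out both libraries numbered 1 was chosen after seeing the data. Within each group no pair of libraries agreed within sampling noise, with a chi-square per degree of freedom of 1.88 to 14.7.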

Additional observations from a re-analysis of the deposited data

How the results depend on the processing

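Across 18 alternatives the lower members numbered 29 to 43 and the higher members 7 to 17, against 41 and 17 with the settings of the report. With the test against a fold of 1.5, 4363 of all genes tested were higher and 3942 lower, 7 members were higher and 29 lower, 3 forkhead genes were higher and 14 lower, 2 T-box genes were higher and 1 SOX gene was higher. That count of higher SOX genes was also 1 with DESeq2, with scaling by library size alone and without both libraries numbered 1, and 1 to 2 when single libraries were left out, since the call on SOX8 was lost. In the test against a fold of 1.5 the calls on SOX8, SOX11, SOX13, GATA3, TBX2, TBX3, TBX18 and TBX20 were lost. So were those on FOXC2, FOXD3, FOXE3, FOXI3, FOXJ2, FOXJ3, FOXK1, FOXK2, FOXM1, FOXN2, FOXO1, FOXO3, FOXP1 and FOXP4. Where a gene needed 1 CPM or more in each library, 2 GATA genes were lower, as GATA5 was no longer tested and GATA3 no longer called. Leaving out single libraries gave 6947 to 7441 higher and 6919 to 7444 lower genes, and 14 to 17 higher and 39 to 41 lower members.

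Signs turned for 5 members close to 0, of which SOX30 (log2 fold change -0.40 to 0.42 over the alternatives) and TBX6 (-0.44 to 0.82) were called under none. The log2 fold change of FOXO4 was -0.097 with library size only, -0.17 with no filter (called, edgeR adjusted p = 0.00538, adjusted p over alternatives 0.00538 to 1), -0.073 without MGO replicate 1, -0.012 without MGO replicate 3, -0.0099 without untreated replicate 4 (lowest -0.073 and highest 0.022 over single libraries left out) and -0.058 without both libraries numbered 1. FOXE1 turned to -0.049 with no filter and -0.049 without MGO replicate 4, where the highest value with a single library left out was 0.24, and FOXJ3 to -0.044 with no filter. Library size as the only scaling moved the median log2 fold change of all genes to -0.10, and no filter moved it to 0.20 over 35722 genes. The cause of these turns was not tested.

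The groups share the replicate numbers 1 and 4, and nothing in the labels says that they mark a shared culture. Deviations from the group means correlated at 0.02 for the libraries numbered 1 and -0.008 for those numbered 4. With the replicate number as a block 16 members were higher and 37 lower, where 6778 of all 17415 genes tested were higher and 6673 lower, and FOXP1 (edgeR adjusted p = 0.0808), FOXC2 (0.0812), FOXE3 (0.0550), GATA3 (0.436) and TBX20 (0.217) were not called. Genes under 1 CPM rest on few reads, above all in MGO libraries, and their differences are limited by depth.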

Other observations

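Relatives of the 4 families outside the symbol rule were more often higher than lower. Of 19 tested genes 11 were higher, 6 lower and 2 not called (median log2 fold change 0.48), where 41.8% of all genes tested were higher. HBP1, an HMG-box repressor of the cell cycle, stood at 74.5 CPM in MGO against 27.0 CPM in untreated libraries, CIC, an HMG-box repressor downstream of MAP kinase signalling, at 239 CPM in MGO against 115 CPM in untreated libraries, and FOXO3B, whose reads may be shared with FOXO3, at 8.94 CPM in MGO against 3.79 CPM in untreated libraries. The HMG proteins HMGB1 (284 CPM in MGO against 534 CPM in untreated libraries) and HMGB3 (149.8 CPM in MGO against 286 CPM in untreated libraries) and the Wnt repressor TCF7L1 (8.64 CPM in MGO against 18.3 CPM in untreated libraries) were the largest falls. MGA, which carries a T-box and a MAX-binding domain, stood at 61.5 CPM in MGO against 40.1 CPM in untreated libraries and was higher (log2 fold change 0.61, edgeR adjusted p = 3.38e-14), as was TBR1, a T-box factor of the TBX21 subfamily (0.691 CPM in MGO against 0.101 CPM in untreated libraries, log2 fold change 2.71, edgeR adjusted p = 3.52e-06). EOMES, of the same subfamily, stood at 4.66 CPM in MGO against 5.48 CPM in untreated libraries and was not called (edgeR adjusted p = 0.0522).

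Transcripts named after a member were few. FOXD2-AS1 stood at 5.58 ± 0.529 CPM in MGO and 11.2 ± 0.875 CPM in untreated libraries (n = 3 each, log2 fold change -1.0, edgeR adjusted p = 5.58e-11), beside a larger fall of FOXD2 (-2.04), and FOXN3-AS1 at 1.83 ± 0.604 CPM in MGO and 2.88 ± 0.248 CPM in untreated libraries (log2 fold change -0.66, edgeR adjusted p = 0.00110), beside a larger fall of FOXN3 (-2.04). SOX2-OT, within which SOX2 lies, stood at 0.195 CPM in MGO against 0.336 CPM in untreated libraries and was not called (edgeR adjusted p = 0.112), and SOX9-AS1, with 50 counts in all, was not tested. Without knowledge of the strand setting, reads of these transcripts and of the genes they overlap cannot be told apart.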
